A study of Mus musculus with 4 samples.

Results

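Chromaffin cells of the adrenal medulla store catecholamines in dense granules together with granins, peptide hormones and the enzymes that cut peptide precursors, and the transcripts of 10 such genes were examined in adrenal glands of V1a knockout and wild-type mice. The 10 genes are the granins Chga, Chgb, Scg2, Scg3 and Scg5, the peptide precursors Npy, Penk and Gal, and the prohormone convertases Pcsk1 and Pcsk2. A probe set counted if the array annotation gave it to exactly 1 of these genes. This rule found 9 probe sets for 9 genes, 1 each, among 45037 probe sets on the array. The annotation used here named no probe set for Pcsk2, which was not analysed here. All 9 probe sets read at least 4 log2 units on every array, so none of them entered the test through 1 genotype alone.

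Whole adrenal glands of male mice aged 2 months were profiled on 4 Affymetrix arrays. The groups compared were V1a KO mice, which lack the V1a vasopressin receptor encoded by Avpr1a (2 arrays, called knockout arrays 1 and 2), and wild-type mice (2 arrays, called wild-type arrays 1 and 2). The labels give neither the strain nor the part of the gene that was removed, and nothing in them states that each array had its own animal. The p-values therefore describe the spread between these 4 arrays, part or all of which may be technical. All values below are log2 expression units, and differences between genotypes are knockout minus wild type, so that 1 unit is a 2-fold difference.

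The granins are acidic proteins that drive the formation of granules and are cut into peptides within them. Pcsk1 and Pcsk2 cut precursors at pairs of basic residues, and Scg5, also known as 7B2, is the chaperone that Pcsk2 needs to become active. The peptides made in this way are released with adrenaline and noradrenaline when nerves of the splanchnic supply fire. In rodents, transcription of several granule genes responds to cyclic AMP through a short palindrome near the start site, the cyclic AMP response element.

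The promoter windows of the 4 members that carry its palindrome TGACGTCA or the form TGACGTAA are shown as a description of these genes. Whether the element bears on their values was not tested. Each window runs from 250 bases before to 50 bases after a start site in RefSeq (GRCm38.p6) and is written 5′ to 3′ on the strand of the gene, with the element in capitals. The Chgb window is chr2:132781392-132781691 on the plus strand, Scg2 is chr1:79439977-79440276 on the minus strand, Pcsk1 is chr13:75089607-75089906 on the plus strand and Chga is chr12:102554691-102554990 on the plus strand.
Chgb: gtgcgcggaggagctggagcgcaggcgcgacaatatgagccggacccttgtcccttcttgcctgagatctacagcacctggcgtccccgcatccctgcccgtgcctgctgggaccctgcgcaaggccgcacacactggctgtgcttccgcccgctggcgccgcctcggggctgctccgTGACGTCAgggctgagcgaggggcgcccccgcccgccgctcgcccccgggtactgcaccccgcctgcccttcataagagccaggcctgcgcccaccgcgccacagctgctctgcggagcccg
Scg2: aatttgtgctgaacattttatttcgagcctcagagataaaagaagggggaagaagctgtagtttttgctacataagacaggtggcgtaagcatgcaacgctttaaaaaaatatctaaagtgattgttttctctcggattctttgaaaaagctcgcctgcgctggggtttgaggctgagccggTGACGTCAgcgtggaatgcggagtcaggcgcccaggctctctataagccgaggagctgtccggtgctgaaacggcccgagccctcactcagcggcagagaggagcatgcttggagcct
Pcsk1: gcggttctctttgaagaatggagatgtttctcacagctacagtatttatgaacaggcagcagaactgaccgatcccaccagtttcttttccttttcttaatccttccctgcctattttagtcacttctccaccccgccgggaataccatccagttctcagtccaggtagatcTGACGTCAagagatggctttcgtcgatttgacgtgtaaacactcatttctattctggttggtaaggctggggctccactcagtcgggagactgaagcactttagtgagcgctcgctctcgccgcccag
Chga: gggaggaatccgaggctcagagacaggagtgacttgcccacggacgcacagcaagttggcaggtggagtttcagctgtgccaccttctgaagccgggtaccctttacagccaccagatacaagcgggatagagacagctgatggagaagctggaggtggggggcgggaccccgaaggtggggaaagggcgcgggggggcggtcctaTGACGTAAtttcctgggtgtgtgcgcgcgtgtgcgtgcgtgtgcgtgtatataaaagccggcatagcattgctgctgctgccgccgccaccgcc

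In the gene table of GRCm38.p6, Chga spans 102554941 to 102565027 on chromosome 12, Chgb 132781642 to 132795079 on chromosome 2, Scg2 79434366 to 79440026 on chromosome 1, Scg3 75643366 to 75685959 on chromosome 9 and Scg5 113776313 to 113829091 on chromosome 2. Npy spans 49822710 to 49829507 on chromosome 6, Gal 3409915 to 3414544 on chromosome 19 and Pcsk1 75089420 to 75134861 on chromosome 13. Of the 9 measured members 8 had a window in the RefSeq table, and Penk did not. The windows of Scg3 and Pcsk1 were set at start sites inside these spans, and the others at the ends of the spans. The palindrome TGACGTCA, searched on both strands, was found in 3 of these 8 windows, in Chgb, Scg2 and Pcsk1, and in 1.79% of all 32851 windows. Its first base lay 72 bases before the start site in Chgb, 68 in Scg2 and 78 in Pcsk1. The form TGACGTAA was added to the search after the windows had been seen. It lay 44 bases before the start site in Chga and occurred in 0.499% of all windows. TGCGTCA was found in 1 of the 8 windows, that of Scg5, which is not printed here. It lay at 20 bases after the start site on the opposite strand, and occurred in 2.12% of all windows. The motif GGGGCGGGG was found in none of the 8 and in 11.4% of all windows. The motifs do not overlap one another in these windows, and a match describes letters, not a bound factor.

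Between the genotypes, Penk stood apart from the other members by its values. Penk, the precursor of the enkephalins, opioid peptides that chromaffin cells release with catecholamines, read 6.92 and 7.08 in knockout glands, against 8.10 and 7.66 in wild-type glands. Both knockout arrays lay below both wild-type arrays. The mean was 6.998 ± 0.12 in knockout and 7.88 ± 0.31 in wild type (SD, n = 2 each), a difference of -0.88 (SE 0.23, 95% interval -1.54 to -0.23), so that wild-type glands read 1.84-fold higher. The gene lies on chromosome 4 (4133536 to 4138815 in GRCm38.p6). In limma its unadjusted p was 0.0209, and its p adjusted over all 17228 tested probe sets was 0.794. Leaving out single arrays gave differences of -1.10 to -0.66, and the unadjusted p missed 0.05 without knockout array 1 (0.136) and without knockout array 2 (0.0948).

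Penk was the 1 member of 9 at an unadjusted p under 0.05 in limma, where 5.14% of all tested probe sets lay under that value and 3.01% did so with a lower knockout mean. It was also the 1 member whose genotypes did not overlap, where 37.4% of all tested probe sets did not. An adjusted p under 0.05 in limma was reached by no member and by 0% of all probe sets. A stricter unadjusted rule, p under 0.01 and a change of 2-fold or more, was met by no member and by 0.836% of all probe sets. The members' count at an unadjusted p under 0.05 is therefore near the background, and their count without overlap lies below it. Neither count was tested against the background, and Penk is singled out here by its values.

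Gal encodes galanin, a peptide that acts on its own G protein-coupled receptors. It read 11.23 and 10.01 in knockout glands, against 12.10 and 10.57 in wild-type glands. The genotypes overlapped, because array 1 of the knockout lay above array 2 of the wild type. The difference was -0.72 (SE 0.73, 95% interval -2.80 to 1.37, limma unadjusted p = 0.387), and leaving out single arrays gave -1.48 (without wild-type array 2) to 0.05 (without wild-type array 1).

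Npy encodes neuropeptide Y, which is stored and released with catecholamines. It read 13.55 and 12.83 in knockout glands, against 13.53 and 12.69 in wild-type glands. Each genotype had a high and a low array at much the same values, and the difference was 0.08 (SE 0.43, 95% interval -1.16 to 1.33).

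**Figure D1:**
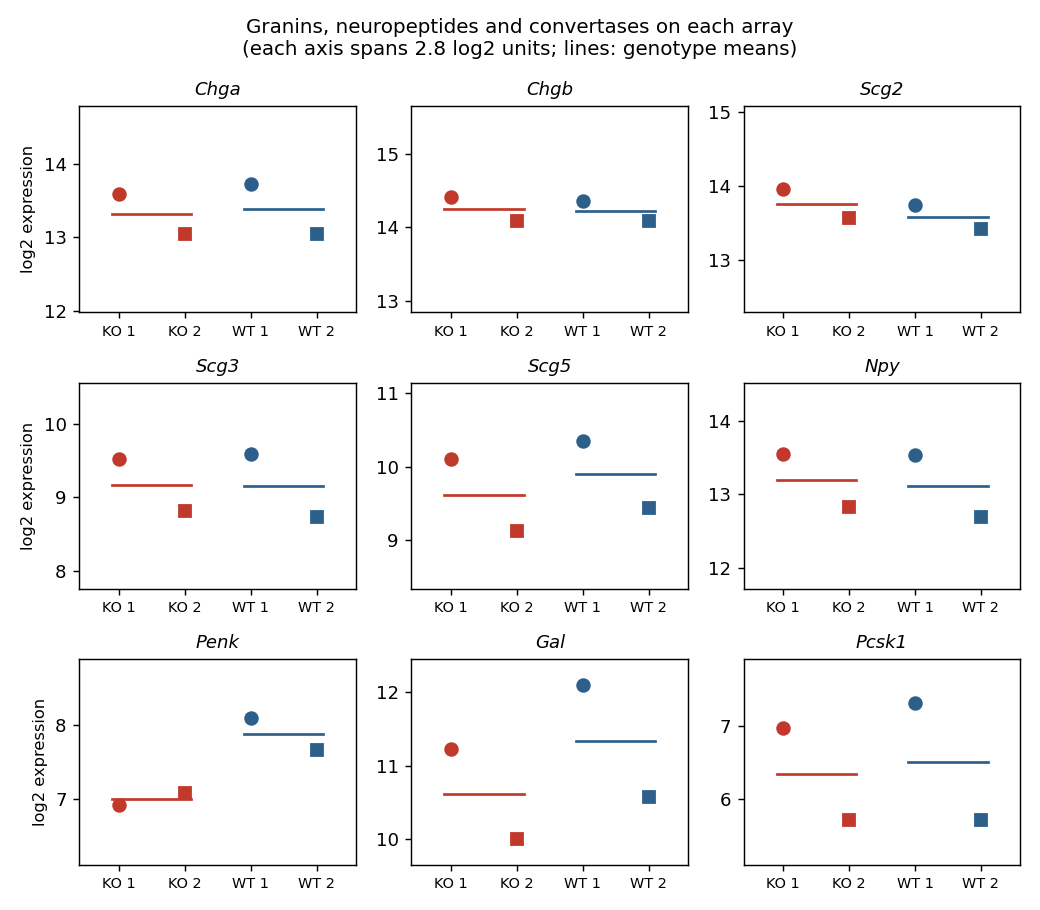
The log2 expression (y axis, log2 units) of each of the 9 measured genes is plotted for the 4 arrays, with knockout arrays in red at the left, wild-type arrays in blue at the right, circles for array 1, squares for array 2 and a line at each genotype's mean. In 8 genes array 1 lies above array 2 in both genotypes, while both Penk values of the knockout, 6.92 and 7.08, lie under both of the wild type, 8.10 and 7.66.

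Among the granins, chromogranin A, encoded by Chga and used as a marker of neuroendocrine cells, read 13.59 and 13.05 in knockout glands, against 13.72 and 13.04 in wild-type glands. Chgb, which encodes chromogranin B, read 14.41 and 14.08 in knockout glands, against 14.37 and 14.09 in wild-type glands. These 2 genes differed between genotypes by -0.06 (SE 0.35) and 0.02 (SE 0.22), both within the spread between arrays of a genotype.

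Scg2, the precursor of secretoneurin, read 13.95 and 13.56 in knockout glands, against 13.75 and 13.41 in wild-type glands. Scg3, which binds granule membranes and chromogranin A, read 9.52 and 8.81 in knockout glands, against 9.58 and 8.74 in wild-type glands. Scg5 read 10.11 and 9.13 in knockout glands, against 10.36 and 9.45 in wild-type glands. The differences were 0.18 (SE 0.24) for Scg2, 0.01 (SE 0.43) for Scg3 and -0.28 (SE 0.51) for Scg5, and the genotypes overlapped in each.

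Pcsk1, the convertase that acts early on precursors, read 6.97 and 5.71 in knockout glands, against 7.31 and 5.72 in wild-type glands. Each genotype had a high and a low array, more than 1 unit apart. The difference was -0.17 (SE 0.76, 95% interval -2.33 to 1.99), the widest of the 9 intervals.

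**Figure D2:**
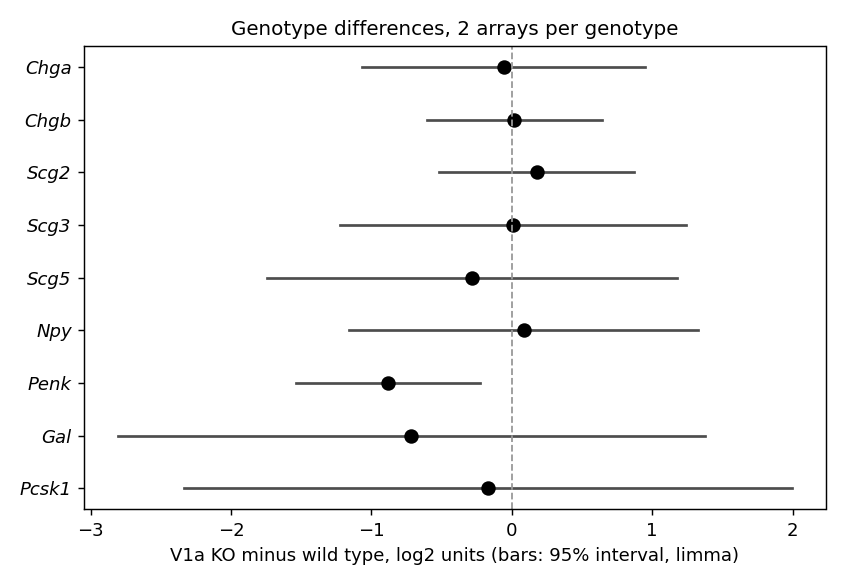
Knockout minus wild-type differences (x axis, log2 units) are shown for the 9 genes, with points at limma's estimate and bars at its 95% interval, from 2 arrays per genotype. The interval of Penk, -1.54 to -0.23, lies below 0, and those of the other 8 genes include 0.

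The larger feature of these genes was a shared step between the arrays of a genotype. In 8 of the 9 members, Penk being the exception, array 1 read higher than array 2 in the knockout and in the wild type alike, where the same held for 32.8% of all 10110 tested genes (one probe set per gene). The median of array 2 minus array 1 over the 9 members was -0.71 in the knockout and -0.84 in the wild type, against 0.01 and -0.20 over all tested genes. For each of these 8 genes the difference between genotypes was smaller than both differences within a genotype. That count was not made over all tested genes. A difference of 2-array means also varies less than a difference of single arrays, so the count does not show that the genotypes are alike. The step was noticed in these values and was not tested, and the labels do not say whether arrays of the same number share a day, a batch or a litter.

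The step was largest in Pcsk1, where array 2 minus array 1 was -1.26 in the knockout and -1.59 in the wild type, that is 2.40-fold and 3.003-fold higher on array 1. In the knockout it was -1.22 in Gal, -0.97 in Scg5, -0.72 in Npy and -0.71 in Scg3. In the wild type it was -1.53 in Gal, -0.91 in Scg5, -0.85 in Npy and -0.84 in Scg3. Chga gave -0.54 in the knockout and -0.68 in the wild type. The step was smallest in Scg2 (-0.39 in the knockout and -0.33 in the wild type) and Chgb (-0.32 in the knockout and -0.28 in the wild type). The palindrome TGACGTCA was in the windows of Pcsk1, Scg2 and Chgb, TGACGTAA in that of Chga and TGCGTCA in that of Scg5. Those of Gal, Npy and Scg3 held none of the motifs searched. Whether a motif bears on the step was not tested. Ordered by size, all 8 genes had the same rank in both genotypes, although neighbours such as Npy and Scg3 lay within hundredths of a unit of each other.

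Penk did not follow the other members in the knockout. Its array 2 minus array 1 was 0.16 in the knockout and -0.43 in the wild type. Centred on its own mean over the 4 arrays, Penk lay at -0.52 and -0.36 on the knockout arrays and at 0.66 and 0.22 on the wild-type arrays. The mean of the other 8 members lay at 0.33 and -0.44 on the knockout arrays and at 0.50 and -0.38 on the wild-type arrays. Penk was thus low on both knockout arrays, while the other members were high on 1 array and low on the other in each genotype. With each array's mean level of catecholamine genes as a covariate, the Penk difference was -0.89 (limma unadjusted p = 0.0521). That fit left 1 residual degree of freedom. Its covariate included Gch1 and Slc18a2, which were lower on wild-type array 1 than on wild-type array 2. How well it follows the share of medulla was not tested.

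**Figure D3:**
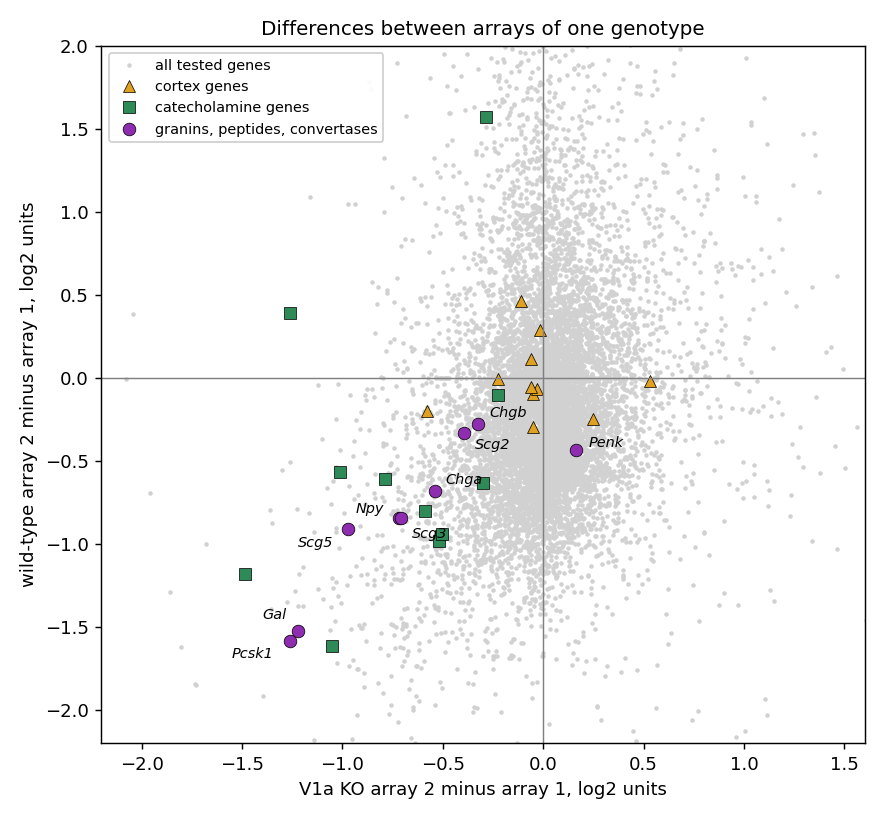
Each point is a gene, placed by its array 2 minus array 1 difference in the knockout (x axis, log2 units) and in the wild type (y axis, log2 units), with all tested genes in grey, the 9 members in purple, catecholamine genes in green and cortex genes in yellow. In the lower left, where array 1 is higher in both genotypes, lie 8 of the 9 members and 9 of 11 catecholamine genes, while 298 genes fall outside the axes.

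Genes that make, store and take up catecholamines shared the step. Array 1 was higher in both genotypes in 9 of 11 tested genes of 12 listed, with medians of array 2 minus array 1 of -0.59 in the knockout and -0.63 in the wild type. Th, the rate-limiting enzyme, read 12.82 and 11.81 in knockout glands, against 12.61 and 12.05 in wild-type glands. Dbh, which makes noradrenaline, read 12.02 and 10.96 in knockout glands, against 12.60 and 10.99 in wild-type glands, on its brightest probe set. Another tested probe set of Dbh read 9.17 and 8.22 in knockout glands, against 9.30 and 8.42 in wild-type glands. A further one read 11.52 and 10.58 in knockout glands, against 10.82 and 10.67 in wild-type glands, with a smaller step in the wild type. Pnmt, which makes adrenaline, read 11.88 and 10.40 in knockout glands, against 12.50 and 11.32 in wild-type glands. Summed on the linear scale and taken back to log2, the list reached 14.80 and 14.07 on the knockout arrays and 14.88 and 14.13 on the wild-type arrays. In whole glands, fewer chromaffin cells and less RNA per chromaffin cell cannot be told apart.

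Between genotypes the catecholamine genes had a median difference of 0.08, with 6 higher and 5 lower and 0 of 11 at an unadjusted p under 0.05 in limma, where 5.06% of all tested genes lay under it. The 3 with the smallest p were Slc18a2, the vesicular monoamine transporter, at 0.79 (SE 0.51), Gch1, which starts the synthesis of the cofactor of Th, at 0.94 (SE 0.61), and Pnmt at -0.77 (SE 0.71). Slc18a2 and Gch1 were the 2 genes of this list that were lower on wild-type array 1 than on wild-type array 2.

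Other proteins of the granule and of peptide processing followed the step less evenly. Array 1 was higher in both genotypes in 10 of 17 tested genes of 19 listed, and lower in both in 3. Their median difference between genotypes was -0.01, with 8 higher, 9 lower and 0 at an unadjusted p under 0.05. The smallest p values belonged to Pam, which amidates peptides, at -0.27 (SE 0.15), Pcsk6, a convertase, at 0.63 (SE 0.41), and Cpd, a carboxypeptidase, at 0.54 (SE 0.35).

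The machinery of regulated secretion was higher on array 1 in both genotypes in 15 of 22 tested genes of 28 listed. Of these 22 genes 6 were higher and 16 lower in the knockout, with a median of -0.17 and 0 at an unadjusted p under 0.05, and over all 10110 tested genes 4437 were higher and 5662 lower. Rph3al, an effector of Rab proteins in exocytosis, differed by -0.92 (SE 0.33), Cadps, which primes granules, by 1.02 (SE 0.52), and Baiap3, a relative of Munc13, by 1.28 (SE 0.75). Cadps read 7.49 and 7.04 in knockout glands, against 5.59 and 6.88 in wild-type glands. Baiap3 read 5.90 and 6.16 in knockout glands, against 5.74 and 3.76 in wild-type glands.

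Transcription factors and lineage genes of chromaffin cells were higher on array 1 in both genotypes in 11 of 14 tested genes of 19 listed. Their median difference between genotypes was 0.12, with 0 of 14 at an unadjusted p under 0.05. Chrna7, a nicotinic receptor subunit, differed by -0.51 (SE 0.23), Insm1, a factor of neuroendocrine development, by 1.76 (SE 0.94), and Isl1 by 0.37 (SE 0.26). Insm1 read 8.84 and 7.86 in knockout glands, against 5.42 on wild-type array 1 and 7.76 on wild-type array 2.

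Peptides other than the members were mostly dim. Of 22 listed, 20 were named on the array and 4 reached the test, with a median difference of 0.20. Cartpt, the precursor of the CART peptides, showed the step, with 7.93 and 6.20 in knockout glands, against 7.64 and 5.79 in wild-type glands. Adm, which encodes adrenomedullin, differed by 0.06 (SE 0.31), and Nppb read 4.11 and 4.45 in knockout glands, against 2.30 and 4.85 in wild-type glands. Of 10 listed receptors for the members' peptides, 9 were named and 1 reached the test. That was Npy2r, a receptor of neuropeptide Y, which read 7.54 and 7.43 in knockout glands, against 4.18 and 7.43 in wild-type glands. The 1 low array was wild-type array 1.

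**Figure D4:**
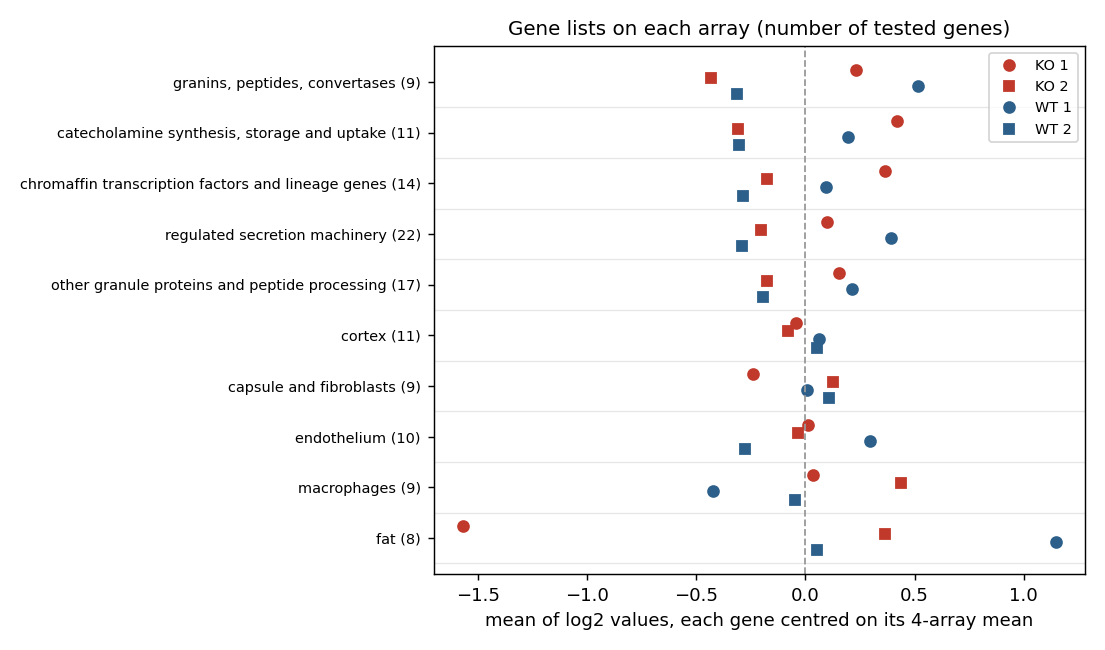
For 10 gene lists the mean of the centred log2 values (x axis, log2 units, each gene minus its own 4-array mean) is shown on each array, knockout arrays in red and wild-type arrays in blue, circles for array 1 and squares for array 2. The members and the 4 other medullary lists lie to the right on both first arrays and to the left on both second arrays, which the cortex, capsule, macrophage and fat lists do not. The endothelium list does so in the wild type, and lies at 0.01 and -0.03 on the knockout arrays.

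Markers of other cells were read beside the members. Cortex genes differed little in size between arrays of a genotype, with medians of array 2 minus array 1 of -0.05 in the knockout and -0.05 in the wild type. In direction, array 1 was higher in both genotypes in 6 of 11 tested genes of 12 listed, and lower in both in 0. Their summed level was 16.76 and 16.69 on the knockout arrays and 16.84 and 16.81 on the wild-type arrays. The median difference of the cortex list between genotypes was -0.12 over 11 genes, with Nr5a1 at -0.37, Mrap at -0.45 and Fdx1 at -0.27. Neuronal markers were higher on array 1 in both genotypes in 4 of 4 tested genes of 12 listed, with Uchl1 at -0.67, Stmn2 at -0.37 and Nefl at 0.40 between genotypes and a list median of -0.13. Their summed level was 9.56 and 8.87 on the knockout arrays and 10.67 and 8.89 on the wild-type arrays. The cholinergic markers Chat, Slc18a3 and Slc5a7 read 2.30, the lowest value of the arrays, on each array. Prph (2.30 to 2.76 over its probe sets) and Gap43 (2.57 to 2.76), of the same list, also lay near the lowest value and did not reach the test. Whether the tested neuronal markers report neurons was not tested.

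Fat markers did not follow the step of the 8 members, and their signs within each genotype were those of Penk. All 8 tested of 10 listed were lower on knockout array 1 than on knockout array 2 and higher on wild-type array 1 than on wild-type array 2. For Penk, array 2 minus array 1 was likewise above 0 in the knockout (0.16) and below 0 in the wild type (-0.43). Their summed level was 12.30 and 13.43 on the knockout arrays and 13.32 and 12.84 on the wild-type arrays, and the list had a median difference of -0.47, with 2 genes higher, 6 lower and Slc2a4 at -1.56. Ucp1 read 2.799 and 5.91 in knockout glands, against 10.05 and 7.24 in wild-type glands. Cidea read 3.37 and 6.06 in knockout glands, against 9.78 and 6.78 in wild-type glands. Their lowest values, on knockout array 1, lay below the 4 log2 units of the filter. Macrophage markers (9 tested of 10) had a median of 0.15, with 5 higher and 4 lower. Among them were Ctss at 0.83 (SE 0.33), Cd68 at 1.11 (SE 0.48) and C1qb at 2.36 (SE 1.35). C1qb read 10.46 and 10.54 in knockout glands, against 6.31 on wild-type array 1 and 9.97 on wild-type array 2. Endothelium (10 tested of 10) had a median of 0.05, with 6 higher and 4 lower, among them Sox18 at 0.67, Ptprb at -0.69 and Kdr at -0.36. Capsule and fibroblasts (9 tested of 10) had a median of -0.12, with 4 higher and 5 lower, and a range of -1.001 to 0.97. The 3 with the smallest p were Postn at -0.67, Dcn at -1.001 and Lum at -0.36. Schwann and glial cells (5 tested of 10) had a median of 0.04, with 3 higher and 2 lower, among them Fabp7 at -0.61 and Erbb3 at 0.62. Sox10 passed the filter through the wild type alone, with 3.65 and 3.05 in knockout glands, against 4.15 and 4.16 in wild-type glands. Of the liver and pancreas list 3 of 10 were tested, 1 higher and 2 lower, with Cela1 at -0.39 and Cpb1 at 0.17. The third, Serpina1b, also passed through the wild type alone, with 2.30 on both knockout arrays, the lowest value of the arrays, against 7.97 and 7.20 in wild-type glands. Alb, a liver marker that did not reach the test, read 2.43 on both knockout arrays, against 8.86 on wild-type array 1 and 2.42 on wild-type array 2. Summed levels of the macrophage list were 12.54 and 13.10 on the knockout arrays and 11.98 and 12.31 on the wild-type arrays. The part of these cells in the Penk difference was not tested.

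Outside the lists, the 5 genes nearest to the mean centred profile of the 9 members over the 4 arrays were Zmym3, Mirg, Gsg1l, Gdap1 and Spryd3. Their root mean square distance from it was 0.04, 0.04, 0.05, 0.05 and 0.06 log2 units. Gsg1l read 9.51 and 8.96 in knockout glands, against 9.84 and 9.08 in wild-type glands. With 4 arrays many genes can lie this near, and the distance describes only these arrays.

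Over the series as a whole, markers of both parts of the gland were read on all arrays, with Star at 14.24 and 14.17 on the knockout arrays and 14.12 and 14.23 on the wild-type arrays beside Th as given above. The 2 probe sets of Avpr1a read 2.31 to 2.60 on the 4 arrays, near the lowest value, so the targeted gene does not check the genotype labels. Wild-type array 1 stood apart, with a Pearson correlation across tested probe sets of 0.919 to 0.924 with the other 3 arrays, while those 3 correlated with each other at 0.974 to 0.986. Without it, the differences of Chga, Scg5, Gal and Pcsk1 turned to 0.28, 0.18, 0.05 and 0.62, and that of Penk was -0.66 (limma unadjusted p = 0.0283), where 2062 of 17228 probe sets lay under an unadjusted p of 0.05, against 885 with all arrays. Within the knockout alone, 8 of 9 members were higher on array 1, beside 47.1% of all tested genes, and within the wild type alone 9 of 9 were, beside 63.6%.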

How the data were processed

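Adrenal RNA was hybridised to Affymetrix Mouse Genome 430 2.0 arrays, 1 array per sample. The deposited log2 expression values were made by the authors from the scanner files with GCRMA from Bioconductor 3.14 (per the labels' protocols); its version is not given in the sources used here, and the log2 scale was read from the values (2.30 to 14.9). GCRMA corrects background by probe sequence and normalizes between arrays, so dim probe sets gather near a floor and differences near it are compressed. No further normalization was applied.

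The 64 manufacturer's controls were dropped. Tested were the 17228 probe sets with a value of 4 or more on any 2 of the 4 arrays. Gene names came from the platform's annotation and were checked by gene ID against the gene table of GRCm38.p6 (34741 matched, 0 symbols changed). For lists, the tested probe set with the highest mean stood for its gene. Genotypes were compared with limma (version 3.58.1, under R 4.3.3; two-sided moderated test, Benjamini-Hochberg over all tested probe sets), which had 2 residual and 1.73 prior degrees of freedom. The number of arrays limits the precision. SEs are limma's and SDs are over 2 arrays. Simulated arrays with 17228 probe sets and this spread (knockout against wild type) gave an unadjusted p under 0.05 for 72.8% of changes of 1 log2 unit and an adjusted one for 0%. Their noise was independent between arrays, with spreads drawn at random from all tested probe sets, and held no outlying array. Members other than Chgb, Scg2 and Penk had SEs of 0.35 to 0.76, so the 72.8% does not describe them.

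The members, the 14 lists of 194 genes and the naming rule were chosen with earlier results of these data known. Named are the members, Avpr1a, Th, Dbh, Pnmt, up to 3 genes per list with the smallest p, and the 5 genes nearest in profile. Star, Alb, Chat, Slc18a3, Slc5a7, Prph and Gap43 were named after their values were seen. Promoter windows came from RefSeq (GRCm38.p6), and a search of protein sequences was not run.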

Additional observations from a re-analysis of the deposited data

How the results depend on the processing

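The filter was dropped or raised to 6 log2 units, the arrays were quantile-normalized or centred on their medians, and the variance was fitted with a trend and robustly. Other fits used only plain probe sets, a replicate block, 3 of the 4 arrays, the catecholamine genes as a covariate, or averaged probe sets per gene. The Penk difference kept its direction under all 13, between -1.10 and -0.66, with an unadjusted p from limma of 0.00974 to 0.136. It missed 0.05 without either knockout array and with the covariate. Members under an unadjusted p of 0.05 in limma numbered 1 with all arrays, 0 with the covariate, 2 with the replicate block (Penk, and Gal at -0.72) and 0 to 1 leaving out single arrays. With that block the limma unadjusted p of Gal was 0.0463, and 684 of 17228 probe sets lay under 0.05. The block and the covariate each left 1 residual degree of freedom. The labels do not say what the array numbers share. Array 2 minus array 1 correlated at 0.154 between genotypes over 17228 probe sets, and with 2 pairs this does not settle a pairing.

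In 8 of the 9 members the difference changed sign under some alternative, Gal only without wild-type array 1. Chga was 0.015 with quantile normalization, and with the covariate Chgb was -0.033, Scg3 -0.12 and Npy -0.048. Leaving out single arrays moved Chga between -0.40 and 0.28, Chgb between -0.14 and 0.18, Scg2 between -0.020 and 0.37, Scg3 between -0.41 and 0.43, Scg5 between -0.77 and 0.21, Npy between -0.34 and 0.51, Gal between -1.48 and 0.047, and Pcsk1 between -0.96 and 0.62. The cause was not tested. The 8 members higher on array 1 in both genotypes numbered 8 with quantile normalization and with median centring, alternatives added after the data were seen.

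Over all probe sets, those under an unadjusted p of 0.05 numbered 885, against 1545 without a filter, 525 with the covariate and 169 to 6507 leaving out single arrays. Those under 0.01 and 2-fold apart numbered 144, against 78 without a filter and 25 to 1497 leaving out single arrays. Those under an adjusted p of 0.05 numbered 0, against 2 with plain probe sets, the raised filter or either rescaling, and 0 of the members under any alternative. Those whose genotypes do not overlap numbered 6448, against 4220 with plain probe sets only, which tests fewer. Where a genotype kept 1 array, its spread was taken from the other one.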
